A study of Mus musculus with 12 samples.

Results

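Liver zonation markers are genes whose RNA lies in hepatocytes at one end of the liver lobule. The 8 genes followed here were 4 pericentral ones (Glul, Oat, Rhbg and Slc1a2) and 4 periportal ones (Gls2, Sds, Cdh1 and Hsd17b13). A gene was measured through every probe of the raw bead array table whose single annotated symbol was its own. This found 5 of the 8 genes, among 19057 genes on the array, with 10 of its 45281 probes. Glul, Oat and Rhbg had 1 probe each, Slc1a2 had 5 and Cdh1 had 2. Gls2, Sds and Hsd17b13 matched no symbol in the annotation used and were not analysed here. The periportal side of the comparison was therefore Cdh1 alone, and wider lists of zonated genes were read beside the members.

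The study set liver tissue beside freshly isolated hepatocytes from male C57BL6/J mice of 2 genotypes. IkkβF/F mice, titled Cre(-) and written FF below, carry floxed alleles of the kinase gene Ikbkb. IkkβDhep mice, titled Cre(+) and written Dhep below, are named as Ikkβ-deleted in hepatocytes. Each preparation of each genotype made 1 of the 4 groups, with 3 arrays each and no treatment named in the labels. The labels put the age at 4 to 6 weeks and the study's description at 6 to 8 weeks, and the labels do not name the promoter that drives Cre. The description counts 4 mice and 4 RNA samples, so each group was read as 1 mouse and its 3 arrays as repeat measurements of 1 RNA. The p-values below compare these RNA samples and do not cover the spread between mice.

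Raw intensity had a median of 41.0 to 53.8 per array. The 75th percentile was 75.5 to 85.7 on the FF hepatocyte arrays and 94.7 or more on the others. Normalised arrays of 1 group had a Pearson r of 0.997 to 0.998 with each other, and arrays from separate groups 0.981 to 0.993. The kept Ikbkb probe (ILMN_2589556) had mean log2 signals of 7.62 (FF) and 7.47 (Dhep) in liver, and of 7.35 (FF) and 7.66 (Dhep) in hepatocytes. Whether it lies in the deleted part of the gene was not analysed here, so it does not check the deletion. All 8 hepatocyte markers were measured, and their summed linear signal lay between 129005 and 147389 on every array. The sum hides dim and moving markers. The Alb probe had low mean log2 signals, 7.67 to 8.35 in the 4 groups. Apob stood at 0.66 log2 units for Dhep minus FF in hepatocytes (list median -0.05). It stood at 0.91 for hepatocytes minus liver in Dhep (list median 0.09).

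Blood enters the lobule at the portal tract and leaves at the central vein, and hepatocytes along this path divide metabolism between them. Periportal cells carry gluconeogenesis, the urea cycle and amino acid breakdown. Pericentral cells carry xenobiotic metabolism, and the last cells before the vein capture remaining ammonia as glutamine. Wnt ligands and R-spondin made by endothelium of the central vein maintain the pericentral programme through β-catenin and TCF factors.

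Most of the members act on nitrogen. Glul encodes glutamine synthetase, which joins ammonia to glutamate. Oat encodes ornithine aminotransferase, a mitochondrial enzyme on the path from ornithine to glutamate. Rhbg encodes an ammonia transporter of the Rhesus family, and Slc1a2 encodes the glutamate transporter GLT-1. On the periportal side Gls2 encodes liver glutaminase, which releases ammonia from glutamine, and Sds encodes serine dehydratase. Cdh1 encodes E-cadherin, the adhesion molecule of epithelial junctions. Hsd17b13 encodes a lipid droplet protein of the 17-beta hydroxysteroid dehydrogenase family.

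On GRCm38.p6 the RefSeq gene Glul spans chr1:153899929-153909723 and Oat spans chr7:132557475-132576398. Rhbg spans chr3:88242874-88254739, Slc1a2 spans chr2:102658239-102790784 and Cdh1 spans chr8:106603350-106670247. Where in its transcript each probe lies (coding sequence or UTR) was not analysed here. The 250 bases upstream of the RefSeq start are shown for the measured pericentral members with an entry in the promoter table used, since TCF factors act on this programme. Of the 8 member genes 4 matched that table, Glul, Oat, Slc1a2 and Hsd17b13. Capitals mark the letters TCAAAG, the core of the TCF/LEF motif, on either strand (CTTTGA on the opposite one).
Glul, chr1:153899679-153899928, plus strand: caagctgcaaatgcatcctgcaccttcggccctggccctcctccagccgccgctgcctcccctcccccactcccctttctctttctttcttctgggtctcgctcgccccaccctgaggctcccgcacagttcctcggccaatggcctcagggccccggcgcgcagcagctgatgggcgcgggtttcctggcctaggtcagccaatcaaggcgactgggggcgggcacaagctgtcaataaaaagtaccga
Oat, chr7:132576399-132576648, minus strand: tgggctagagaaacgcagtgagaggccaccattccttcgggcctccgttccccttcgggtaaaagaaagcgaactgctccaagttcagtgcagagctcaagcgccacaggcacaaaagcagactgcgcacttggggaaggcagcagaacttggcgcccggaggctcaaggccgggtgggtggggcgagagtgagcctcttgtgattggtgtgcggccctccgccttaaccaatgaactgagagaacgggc
Slc1a2, chr2:102706188-102706437, plus strand: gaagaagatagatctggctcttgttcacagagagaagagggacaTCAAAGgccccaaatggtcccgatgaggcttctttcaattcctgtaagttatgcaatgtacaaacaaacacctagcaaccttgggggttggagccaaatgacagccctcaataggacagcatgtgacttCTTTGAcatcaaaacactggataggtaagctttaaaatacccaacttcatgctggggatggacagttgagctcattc

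The Slc1a2 window held 2 matches to the TCF/LEF core, at positions -206 (same strand) and -77 (opposite strand) relative to the start. The Glul and Oat windows held 0. Of 32851 promoter windows of the same length 13.8% held at least 1 match. The longer HNF4A motif CAAAGTCCA, searched on both strands and sharing its first letters with the TCF/LEF core, was found in none of the 3 windows and in 0.384% of all windows. The Slc1a2 start used by the table lies inside the span of the gene. These matches are descriptions of letters, and binding was not measured.

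A probe was kept where, on every array of at least 1 group, it exceeded a floor of 6.06 log2 units, the middle of the mean signals of all probes. Of the 10 member probes 8 passed. The probes under the filter were Slc1a2 ILMN_2551824 and Cdh1 ILMN_1227162, both designed to cDNA clones, with group means of 5.87 to 5.88 and 5.95 to 5.98. Another Slc1a2 probe, ILMN_3047516, passed with means of 6.08 to 6.16 in the 4 groups, next to the floor. A probe was called at a limma adjusted p under 0.05 over all 22859 kept probes together with a log2 difference of at least 1. No member probe was called in any comparison. Each member difference below is therefore under 2-fold and is described by its values and its adjusted p alone.

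**Figure D1:**
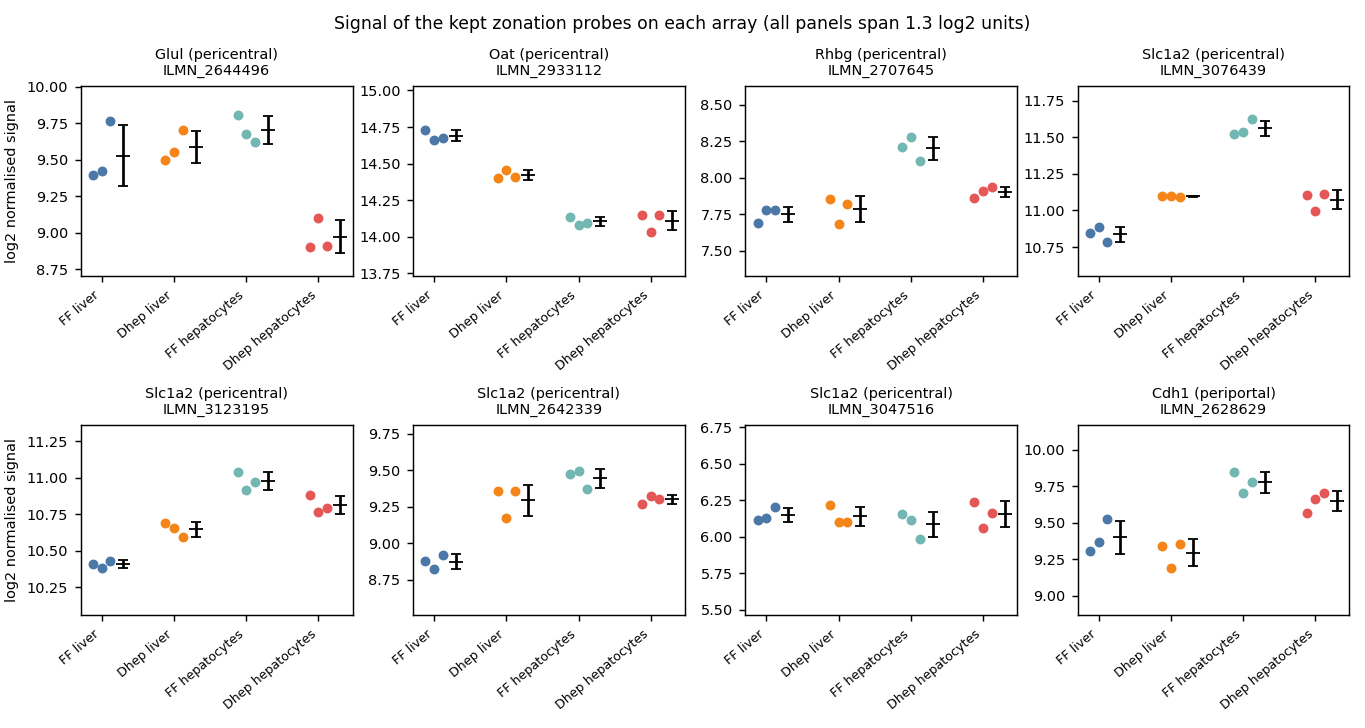
Log2 normalised signal (vertical axis) of the 8 kept member probes on each of the 12 arrays, by group, with the mean and SD of 3 arrays in black. Every panel spans the same number of log2 units. Glul is lowest in Dhep hepatocytes, Oat is higher in both liver groups than in both hepatocyte groups, and the bright Slc1a2 probes are highest in FF hepatocytes.

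Glul, the pericentral member that makes glutamine, was lower in Dhep hepatocytes than in the other groups. Its log2 signal on probe ILMN_2644496 (NM_008131) was 9.40, 9.42 and 9.77 on the FF liver arrays and 9.50, 9.55 and 9.71 on the Dhep liver arrays. It was 9.81, 9.67 and 9.62 on the FF hepatocyte arrays and 8.90, 9.10 and 8.91 on the Dhep hepatocyte arrays. All 3 Dhep hepatocyte arrays lay below the other 9, and the other groups overlapped each other. The Dhep hepatocyte mean was 8.97 ± 0.11 and the FF hepatocyte mean 9.70 ± 0.10 (SD, n = 3 arrays). The difference was -0.73 ± 0.08 (SE, limma adjusted p = 7.16e-08), or 1.66-fold lower.

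In liver the Glul genotype difference was 0.06 ± 0.08 (limma adjusted p = 0.66). Hepatocytes minus liver was -0.61 ± 0.08 in Dhep (adjusted p = 1.61e-06) and 0.17 ± 0.08 in FF (adjusted p = 0.0921). The genotype difference in hepatocytes minus that in liver was -0.79 ± 0.12 (adjusted p = 6.76e-06). With each array scaled to a common median in place of quantile normalization, the hepatocyte difference was -0.27 (adjusted p = 0.00489) while the median of all probes moved to 0.16. Relative to that median Glul stood at -0.43. Under that scaling the interaction was -0.15 (adjusted p = 0.309), and hepatocytes minus liver in FF turned to -0.29 (adjusted p = 0.00295). The same difference was 0.29 (adjusted p = 0.0029) without FF liver array 3, the highest array of its group, 0.23 (adjusted p = 0.0273) with cyclic loess and 0.21 (adjusted p = 0.0279) in the authors' table. In the raw table Glul intensities were 536 to 695 in FF hepatocytes and 495 to 600 in Dhep hepatocytes, so the raw ranges overlapped. In bulk RNA, fewer pericentral cells in a sample and less Glul RNA per cell cannot be told apart.

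Oat, the ornithine aminotransferase, separated liver from hepatocytes. Its log2 signal on probe ILMN_2933112 (NM_016978) was 14.73, 14.66 and 14.68 on the FF liver arrays and 14.40, 14.46 and 14.41 on the Dhep liver arrays. It was 14.14, 14.08 and 14.10 on the FF hepatocyte arrays and 14.15, 14.03 and 14.15 on the Dhep hepatocyte arrays. FF liver was highest, Dhep liver came next without overlap, and the hepatocyte groups lay below both and overlapped each other after normalization. In the raw table the hepatocyte groups did not overlap, at 14288 to 16542 in FF and 17185 to 20370 in Dhep. Hepatocytes minus liver was -0.59 ± 0.05 in FF (SE, limma adjusted p = 2.79e-09) and -0.31 ± 0.05 in Dhep (adjusted p = 3.96e-05). Dhep minus FF was -0.27 ± 0.05 in liver (adjusted p = 0.000537) and 0.01 ± 0.05 in hepatocytes (adjusted p = 0.938). The interaction was 0.27 ± 0.08 (adjusted p = 0.00465). Under median scaling the isolation differences were -0.72 and -0.25 and the liver genotype difference -0.37, all with the same sign and an adjusted p under 0.05.

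Rhbg, the ammonia transporter, was highest in FF hepatocytes after quantile normalization, though not in the raw table or under median scaling. On probe ILMN_2707645 (NM_021375) the log2 signal was 7.69, 7.78 and 7.78 in FF liver and 7.86, 7.68 and 7.82 in Dhep liver. It was 8.21, 8.28 and 8.12 in FF hepatocytes and 7.86, 7.91 and 7.93 in Dhep hepatocytes. FF hepatocytes lay above all other arrays on this scale and the liver groups overlapped. In the raw table Rhbg intensities were 179 to 234 in FF hepatocytes and 243 to 262 in Dhep hepatocytes, the opposite order. Hepatocytes minus liver was 0.45 ± 0.06 in FF (SE, limma adjusted p = 8.46e-07) and 0.11 ± 0.06 in Dhep (adjusted p = 0.129). Dhep minus FF was -0.30 ± 0.06 in hepatocytes (adjusted p = 0.000143) and 0.04 ± 0.06 in liver (adjusted p = 0.703). Under median scaling the genotype differences turned sign, to 0.16 in hepatocytes (adjusted p = 0.0647), at the median of all probes, and to -0.06 in liver (adjusted p = 0.562). The isolation differences stayed positive, at 0.06 in FF (adjusted p = 0.506) and 0.29 in Dhep (adjusted p = 0.00166).

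Slc1a2, the glutamate transporter, was read by 3 probes well above the floor. The brightest, ILMN_3076439 (NM_001077515), gave 10.85, 10.88 and 10.78 in FF liver and 11.10, 11.10 and 11.09 in Dhep liver. It gave 11.52, 11.54 and 11.62 in FF hepatocytes and 11.10, 11.00 and 11.12 in Dhep hepatocytes. After quantile normalization FF hepatocytes stood above all other arrays and FF liver below them, while the Dhep preparations overlapped between these levels. Raw intensities were 1955 to 2250 in FF liver and 1958 to 2428 in Dhep liver. They were 2310 to 2568 in FF hepatocytes and 2138 to 2519 in Dhep hepatocytes, so the raw genotypes overlapped in each preparation. Hepatocytes minus liver was 0.72 ± 0.05 in FF (SE, limma adjusted p = 1.06e-10), or 1.65-fold higher, and -0.02 ± 0.05 in Dhep (adjusted p = 0.777). Dhep minus FF was 0.26 ± 0.05 in liver (adjusted p = 0.000952) and -0.49 ± 0.05 in hepatocytes (adjusted p = 5.12e-08).

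The interaction on this Slc1a2 probe was -0.75 ± 0.08 (limma adjusted p = 3.11e-08). Under median scaling its FF isolation difference was 0.35 (adjusted p = 3.42e-05) and its hepatocyte genotype difference -0.20 (adjusted p = 0.0108). Its liver genotype difference was then 0.06 (adjusted p = 0.525).

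A further pair of Slc1a2 probes had FF liver lowest and FF hepatocytes highest as well after quantile normalization. In the raw table Dhep hepatocytes lay above FF hepatocytes on both. ILMN_3123195 (NM_001077514) gave 10.41, 10.38 and 10.43 in FF liver and 10.69, 10.66 and 10.59 in Dhep liver. It gave 11.04, 10.91 and 10.97 in FF hepatocytes and 10.88, 10.77 and 10.79 in Dhep hepatocytes. No pair of groups overlapped on this probe after normalization. Its raw intensities were 1458 to 1725 in FF hepatocytes and 1780 to 2150 in Dhep hepatocytes. ILMN_2642339 (NM_011393) gave 8.88, 8.82 and 8.92 in FF liver and 9.36, 9.17 and 9.36 in Dhep liver. It gave 9.47, 9.49 and 9.37 in FF hepatocytes and 9.27, 9.33 and 9.31 in Dhep hepatocytes. Here the Dhep preparations overlapped and the FF groups did not overlap any other. Raw intensities of ILMN_2642339 were 445 to 568 in FF hepatocytes and 656 to 728 in Dhep hepatocytes.

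The FF isolation difference was 0.57 ± 0.06 on both of these Slc1a2 probes (limma adjusted p = 8.42e-09 on ILMN_3123195 and 2.46e-08 on ILMN_2642339). The liver genotype difference was 0.24 ± 0.06 (adjusted p = 0.00208) and 0.42 ± 0.06 (adjusted p = 8.90e-06). The hepatocyte genotype difference was smaller, -0.16 ± 0.06 (adjusted p = 0.0172) and -0.14 ± 0.06 (adjusted p = 0.0436). It turned to 0.14 and 0.32 under median scaling. The FF isolation difference was then 0.17 (adjusted p = 0.0455) on ILMN_3123195 and 0.11 (adjusted p = 0.237) on ILMN_2642339, and the liver genotype difference 0.05 (adjusted p = 0.67) and 0.24 (adjusted p = 0.0128). On ILMN_2642339 the hepatocyte genotype difference lost its adjusted p under 0.05 in several settings. The adjusted p was 0.0646 without background correction, 0.0775 with an offset of 16 and 0.0689 without a filter. It was 0.0501 to 0.141 when FF liver array 1, FF hepatocyte array 1 or 2 or any Dhep hepatocyte array was left out. For the hepatocyte genotype difference on ILMN_3123195 it was 0.0842 without FF hepatocyte array 1. It was 0.0727 without Dhep hepatocyte array 2 and 0.0572 without Dhep hepatocyte array 3. ILMN_3047516, made to the same transcript record as ILMN_3123195, showed no difference with an adjusted p under 0.05. Its means lay next to the floor, with FF hepatocytes lowest, Dhep hepatocytes highest and neighbouring groups overlapping. The 5 probes share 1 gene and are not independent members.

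Cdh1, the measured periportal member, was higher in hepatocytes than in liver in both genotypes after quantile normalization. In FF this did not hold in the raw table or under median scaling. Its log2 signal on probe ILMN_2628629 (NM_009864) was 9.31, 9.37 and 9.52 in FF liver and 9.34, 9.19 and 9.36 in Dhep liver. It was 9.84, 9.70 and 9.78 in FF hepatocytes and 9.57, 9.66 and 9.71 in Dhep hepatocytes. On this scale all hepatocyte arrays lay above all liver arrays, and the genotypes overlapped within each preparation. Raw Cdh1 intensities were 716 to 804 in FF liver and 511 to 694 in Dhep liver. They were 600 to 717 in FF hepatocytes and 858 to 890 in Dhep hepatocytes, so the raw genotypes did not overlap in either preparation. Hepatocytes minus liver was 0.38 ± 0.06 in FF (SE, limma adjusted p = 3.31e-05) and 0.35 ± 0.06 in Dhep (adjusted p = 9.67e-05). Dhep minus FF was -0.10 ± 0.06 in liver (adjusted p = 0.255) and -0.13 ± 0.06 in hepatocytes (adjusted p = 0.0964), and the interaction was -0.03 ± 0.09 (adjusted p = 0.846).

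Under median scaling the Cdh1 isolation difference was -0.08 in FF (adjusted p = 0.356) and 0.51 in Dhep (adjusted p = 2.52e-07). Dhep minus FF was then -0.30 in liver (adjusted p = 0.00141) and 0.30 in hepatocytes (adjusted p = 0.000537). The hepatocyte difference was -0.17 (adjusted p = 0.0296) with cyclic loess and -0.14 (adjusted p = 0.0401) in the authors' table. Bile duct cells also make E-cadherin. Of 12 bile duct markers 7 were measured, and their summed linear signal was 1370 to 1411 in FF liver and 1444 to 1486 in Dhep liver. It was 1416 to 1539 in FF hepatocytes and 1193 to 1194 in Dhep hepatocytes. The duct keratin Krt19 had means of 5.97 to 6.13, at the floor, and Epcam and Cftr did not pass the filter. With isolation 1 of the 7 was called lower in each genotype, against 0.192% of all probes in FF and 0.472% in Dhep. This was the duct transcription factor Sox9, which fell by 1.18 in FF and by 1.48 in Dhep. It stood at -0.32 and -0.40 on its other probe. The list's median was -0.01 in FF and -0.09 in Dhep, and the anion exchanger Slc4a2 stood at 0.59 in FF. The part of duct cells in the Cdh1 values was not tested.

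**Figure D2:**
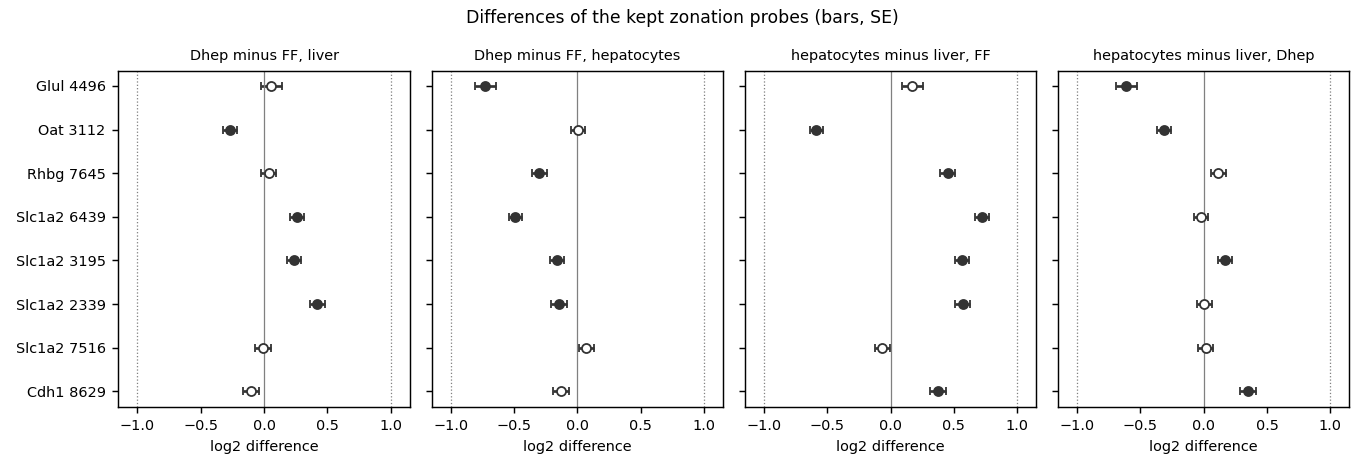
Log2 difference (horizontal axis) of each kept member probe in the genotype and isolation comparisons, with bars for the SE of limma's fit to all 12 arrays. Probes are written by gene and the end of the probe ID, filled points have an adjusted p under 0.05, and dotted lines mark a log2 difference of 1 either way. No point reaches the dotted lines. For Dhep minus FF in hepatocytes, Glul and the brightest Slc1a2 probe (ILMN_3076439) lie furthest below 0.

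The genotype comparison in liver asked how Dhep liver RNA differed from FF liver RNA. Of the 8 kept member probes 3 stood higher at an adjusted p under 0.05 (all Slc1a2) and 1 lower (Oat). Over all kept probes 13.1% were higher and 14.7% lower by that measure. With the fold threshold 0 of 8 were called, against 0.503% of all probes higher and 0.0919% lower. The arrays of the genotypes did not overlap on 4 of 8 member probes, against 40.4% of all probes. By gene, with the brightest kept probe of each, the median of the 4 pericentral members was 0.05 and Cdh1 stood at -0.10, against -0.02 over all probes.

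The same comparison in hepatocytes had 0 member probes higher and 5 of 8 lower at an adjusted p under 0.05. They were the Glul and Rhbg probes and 3 of Slc1a2. Over all probes 27.7% were higher and 26.2% lower. With the fold threshold 0 of 8 member probes were called, against 1.22% of all probes higher and 1.24% lower. Arrays did not overlap on 5 of 8, against 58.8% of all probes. The pericentral median was -0.39 and Cdh1 stood at -0.13, against 0.00 over all probes. Under median scaling the pericentral median was -0.05 against 0.16 over all probes, and 830 probes were called higher and 76 lower, against 278 and 283.

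Markers of other liver cells moved with this comparison. Of 14 endothelial markers, all measured, 5 were called lower in Dhep hepatocytes and 12 were lower at an adjusted p under 0.05. Over all probes 1.24% were called lower and 26.2% were lower at that p. The endothelial summed signal was 9850 to 10207 in FF and 5252 to 5439 in Dhep hepatocytes. In liver the sum was 8104 to 8398 in FF and 9304 to 9665 in Dhep. Kdr and Cdh13 had means at or under the floor in Dhep hepatocytes (6.06 and 6.02). Of 12 stellate cell markers 6 were called lower and 10 were lower at an adjusted p under 0.05. Their sums were 10955 to 11316 in FF and 4987 to 5145 in Dhep hepatocytes. Hhip and Col1a1 were under the floor in Dhep hepatocytes (6.05 and 5.95). Of 12 Kupffer cell and macrophage markers 10 were measured. In hepatocytes 8 were called higher and 10 were higher at an adjusted p under 0.05, against 1.22% and 27.7% of all probes. The sums were 5036 to 5110 in FF and 18771 to 19441 in Dhep hepatocytes. In liver 7 were called higher and 9 were higher at that p, against 0.503% and 13.1% of all probes. The sums there were 5415 to 5495 in FF and 12109 to 12482 in Dhep. The part of these cells in the member differences was not tested.

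The isolation comparison asked how hepatocytes differed from liver tissue of the same genotype. In FF 5 of 8 member probes stood higher in hepatocytes at an adjusted p under 0.05 (Rhbg, 3 of Slc1a2 and Cdh1) and 1 lower (Oat). Over all probes 20.9% were higher and 26.9% lower. With the fold threshold 0 of 8 were called, against 1.25% higher and 0.192% lower over all probes. The preparations did not overlap on 6 of 8, against 53.5% of all probes. The pericentral median was 0.31 and Cdh1 stood at 0.38, against -0.03 over all probes. Under median scaling the pericentral median was -0.12, against -0.15 over all probes, and 119 probes were called higher and 458 lower, against 286 and 44.

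In Dhep the isolation comparison had 2 of 8 member probes higher (1 of Slc1a2, and Cdh1) and 2 lower (Glul and Oat) at an adjusted p under 0.05, against 21.4% higher and 20.5% lower over all probes. The Slc1a2 probe was ILMN_3123195, at 0.17 ± 0.06 (SE, limma adjusted p = 0.0176). Its adjusted p was 0.0808 without Dhep liver array 3 and 0.0971 without Dhep hepatocyte array 1. With the fold threshold 0 of 8 were called, against 0.494% higher and 0.472% lower. The preparations did not overlap on 5 of 8, against 50.2% of all probes. The pericentral median was -0.17 and Cdh1 stood at 0.35, against 0.01 over all probes. Markers of other cells moved with this comparison too. Of 12 stellate cell markers 7 were called lower, and 11 were lower at an adjusted p under 0.05 (list median -1.09). Of 14 endothelial markers 2 were called lower, and 13 were lower at an adjusted p under 0.05 (median -0.72). Of 10 measured Kupffer cell and macrophage markers 2 were called higher, and 8 were higher by that measure (median 0.46). The lowest of 3 measured red cell genes stood at -2.34. In FF none of these 4 lists had a call with isolation, and their medians were 0.00, 0.20, 0.01 and -0.09 in the same order. The part of these cells in the member differences was not tested. The FF and Dhep isolation differences rest on separate RNA samples, whereas each isolation difference shares its samples with the genotype differences.

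The difference between the genotype differences had an adjusted p under 0.05 on 6 of 8 member probes. It was negative on 5 (Glul, Rhbg and 3 of Slc1a2) and positive on Oat, against 23.9% positive and 21.2% negative over all probes. With the fold threshold 0 of 8 were called, against 0.748% positive and 1.78% negative. Under median scaling it turned positive for Rhbg (0.22) and for Slc1a2 on ILMN_2642339 (0.08) and ILMN_3123195 (0.09), none with an adjusted p under 0.05. Calls over all probes were then 1686 positive and 119 negative, against 171 and 408. The interaction stayed negative for Glul and for Slc1a2 on ILMN_3076439 (-0.26, adjusted p = 0.0188).

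**Figure D3:**
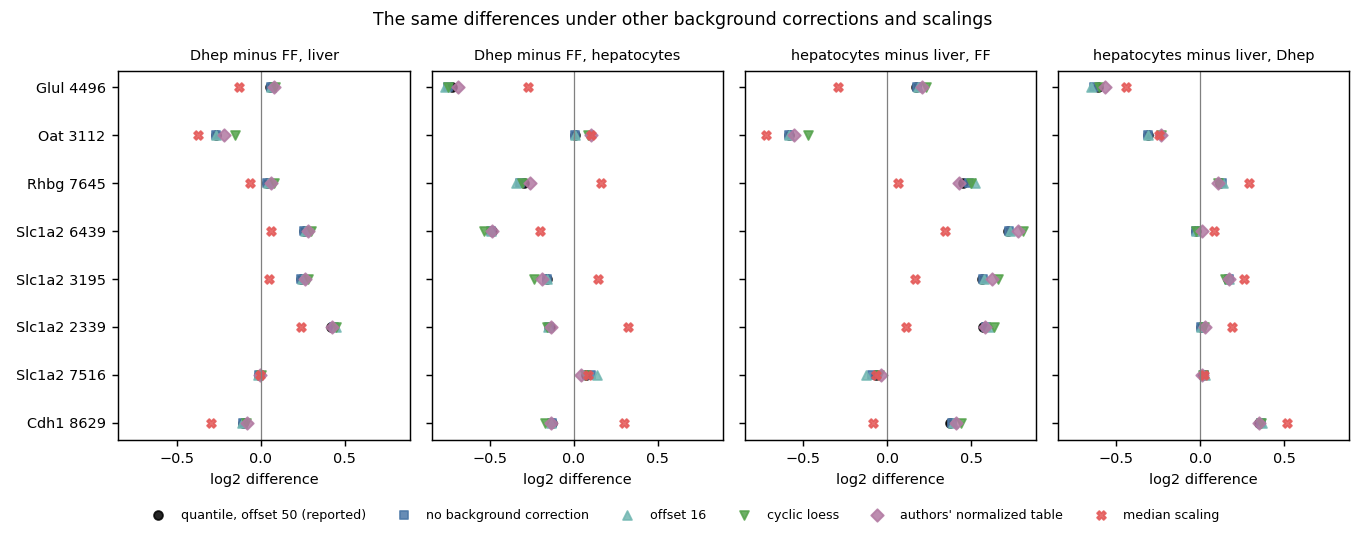
The same log2 differences (horizontal axis) of the kept member probes under the reported processing and 5 other background corrections or scalings, 1 symbol each. Median scaling (red crosses) lies apart from the other settings in most rows, and Glul in hepatocytes stays below 0 under all 6.

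When each RNA sample was counted once, the 4 RNA means left 1 residual degree of freedom. Fitted with preparation and genotype together in limma, 0 of 22859 probes had an adjusted p under 0.05 for either term. An unadjusted p under 0.05 was found for 1126 probes (4.93%) for genotype and for 1691 (7.40%) for isolation. The same contrasts over the 12 arrays called 172 and 93 probes. Of the member probes 0 had an unadjusted p under 0.05 for genotype, and their adjusted p was 0.919 to 0.982. For isolation 2 had an unadjusted p under 0.05. These were Oat, at -0.45 ± 0.12 (SE, limma adjusted p = 0.664), and Cdh1, at 0.36 ± 0.10 (adjusted p = 0.664). Both kept their sign in each genotype. This fit pools a spread from differences that do not add up across genotype and preparation, and it has few degrees of freedom.

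After quantile normalization the members did not vary together as a pericentral set. Over the 12 arrays, which come from 4 RNA samples, Pearson's r was 0.88 between Rhbg and Slc1a2, whereas Oat had r of -0.74 with Rhbg and -0.73 with Slc1a2. Glul had r of 0.24 to 0.29 with the other pericentral members and -0.06 with Cdh1. Rhbg, a pericentral gene, had r of 0.85 with the periportal Cdh1. These values are descriptions of the same 12 arrays on the quantile scale and carry no test. Differences behind them depended on that scale. Under median scaling the Rhbg genotype difference in hepatocytes was 0.16 in place of -0.30, and Cdh1 isolation in FF was -0.08 in place of 0.38.

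The wider pericentral list held 28 further genes, of which 23 were measured. Its median was -0.02 for genotype in liver, -0.07 in hepatocytes, -0.08 for isolation in FF and 0.02 in Dhep. At an adjusted p under 0.05, 6 of 23 were higher and 8 lower in Dhep hepatocytes, against 27.7% and 26.2% of all probes. Those called were Cyp7a1, which catalyses the first step of bile acid synthesis, and Slc13a3, a dicarboxylate transporter gene. Log2 means of Cyp7a1 were 10.65 (FF) and 11.89 (Dhep) in liver, and 13.10 (FF) and 12.82 (Dhep) in hepatocytes. It rose by 1.24 ± 0.05 with genotype in liver (SE, limma adjusted p = 9.89e-15) and by 2.45 ± 0.05 with isolation in FF (adjusted p = 2.93e-20). Slc13a3 rose by 1.12 ± 0.06 with genotype in hepatocytes (adjusted p = 6.97e-14) and by 1.27 ± 0.06 with isolation in Dhep (adjusted p = 1.77e-14). Its second probe stood at 0.85 in both.

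Classical pericentral genes were not called. The cytochrome Cyp2e1 stood at -0.02 for genotype in liver and 0.04 in hepatocytes, and Cyp1a2 at 0.14 and 0.32, with -0.46 in hepatocytes on its other probe. The β-catenin targets Axin2, Lgr5 and Tbx3 stood at 0.15, -0.11 and -0.19 in hepatocytes. The 4 Tbx3 probes ran from -0.42 to 0.19.

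The wider periportal list held 27 further genes, of which 25 were measured. In Dhep hepatocytes 17 of 25 were higher and 4 lower at an adjusted p under 0.05, with a median of 0.30, against 27.7% and 26.2% of all probes. Dhep liver had 3 higher and 10 lower, with a median of -0.12, against 13.1% and 14.7%. For isolation the list had 7 higher and 16 lower in FF (median -0.23), against 20.9% and 26.9%. In Dhep it had 12 higher and 3 lower (median 0.13), against 21.4% and 20.5%. The median of the difference between genotype differences was 0.39, against 0.02 over all probes, and 0.82 against 0.22 under median scaling. Cdh1 stood at -0.03 and, under median scaling, at 0.60 (adjusted p = 4.73e-06).

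With the fold threshold the periportal genes called in Dhep hepatocytes were Sult5a1 and Aldh1b1. The sulfotransferase gene Sult5a1 had log2 means of 8.84 (FF) and 9.24 (Dhep) in liver, and of 8.61 (FF) and 10.35 (Dhep) in hepatocytes. It rose by 1.75 ± 0.06 with genotype in hepatocytes (SE, limma adjusted p = 9.40e-18) and by 1.54 on its other probe. The mitochondrial aldehyde dehydrogenase Aldh1b1 rose by 1.20 ± 0.07 (adjusted p = 8.90e-13).

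Isolation moved periportal genes in both directions. G6pc, the catalytic subunit of glucose-6-phosphatase, rose by 1.33 ± 0.05 in FF and 1.18 ± 0.05 in Dhep. Hal, histidine ammonia-lyase, fell by 1.19 in FF and stood at 0.27 in Dhep. Etnppl, a phospholyase acting on phosphoethanolamine, fell by 1.04 in FF and stood at 0.13 in Dhep. Ctsc, the protease cathepsin C, rose by 1.02 in Dhep and stood at 0.94 in FF. The Etnppl and Ctsc calls sat at the fold threshold, and both were lost with cyclic loess (-0.98 and 0.98) and in the authors' table (-0.99 and 0.99). The Ctsc call was also lost without Dhep liver array 1 or Dhep hepatocyte array 2.

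Other classical periportal genes were not called in hepatocytes for genotype in the reported fit. Hal stood at 0.93, with 0.77 on its other probe. It was called under median scaling (1.17) and in the authors' table (1.00). G6pc stood at -0.14. Pck1, the gluconeogenic carboxykinase, stood at 0.38 and the urea cycle genes Cps1 and Ass1 at 0.47 and 0.10. Cyp2f2, a periportal cytochrome, stood at 0.16. Igf1 (-0.91) and Apoc2 (-0.57) were the lowest of the list there.

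**Figure D4:**
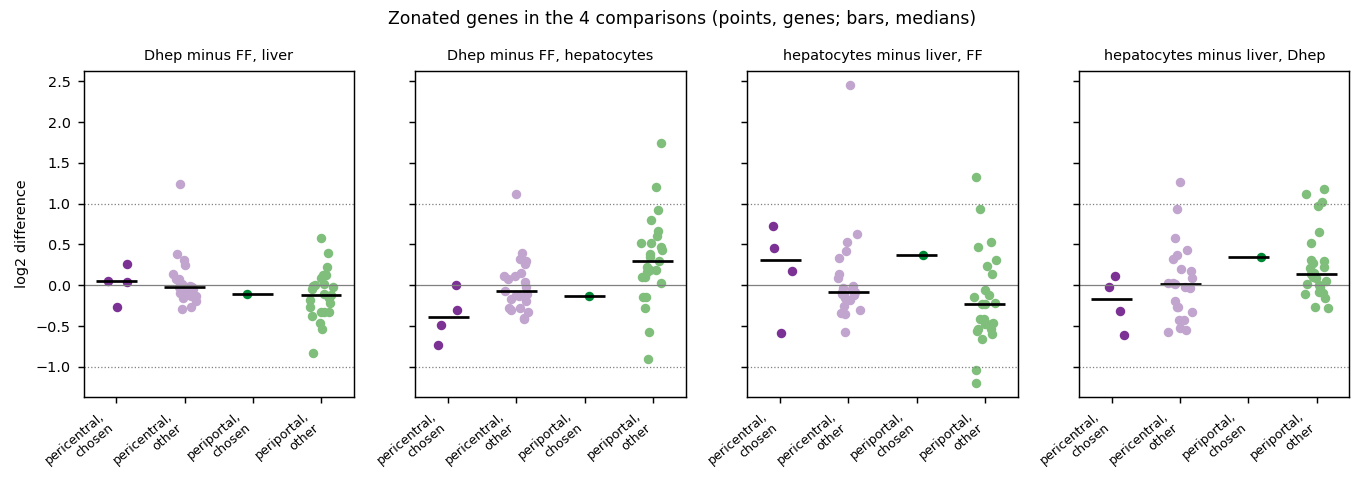
Log2 difference (vertical axis) of each measured zonated gene, by its brightest kept probe, for the pericentral members (4), other pericentral genes (23), Cdh1 and other periportal genes (25) in the genotype and isolation comparisons. Black bars are medians and dotted lines mark a log2 difference of 1. For Dhep minus FF in hepatocytes the other periportal genes have a median of 0.30 and the other pericentral genes a median of -0.07. The pericentral members have a median of -0.39 there, and Cdh1 stands at -0.13.

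The Wnt signalling list had 19 of 23 genes measured and 0 called in any comparison. In Dhep hepatocytes 4 of 19 were higher and 5 lower at an adjusted p under 0.05, with a median of 0.05, against 27.7% and 26.2% of all probes. The lowest were the central vein signals Rspo3, at -0.92 ± 0.07 (SE, limma adjusted p = 3.01e-11), and Wnt2, at -0.72 ± 0.06 (adjusted p = 6.03e-10). In liver Rspo3 stood at -0.14 and Wnt2 at -0.23. Both are made by endothelial cells, whose summed marker signal was lower in the same RNA, and its part in these values was not tested. Ctnnb1, which encodes β-catenin, stood at 0.08 in hepatocytes on its brightest probe and from -1.01 to 0.40 on its others.

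Genes around the members' pathways were read in the same way. Of 34 genes of glutamine, glutamate, ornithine and ammonia handling 27 were measured, and 9 were higher and 8 lower in Dhep hepatocytes at an adjusted p under 0.05 (median -0.02), against 27.7% and 26.2% of all probes. Asns, asparagine synthetase, which consumes glutamine, fell by 1.29 ± 0.06 (SE, limma adjusted p = 2.96e-14), with means of 8.08 in FF and 6.79 in Dhep hepatocytes. Its other probes stood at -0.38 and -0.03, and under median scaling the fall was 0.89 in size, short of the threshold. Slc25a15, the mitochondrial ornithine carrier, stood at 0.83 in hepatocytes and -0.25 in liver, an interaction of 1.08 ± 0.08. Slc38a2, a glutamine transporter, was called with isolation in FF at 1.00 ± 0.06, and its other probes stood at 1.76 and -0.09. This call sat at the fold threshold and was lost under median scaling (0.61) and without FF liver array 1 (0.94), FF hepatocyte array 1 (0.99) or FF hepatocyte array 3 (1.00 after rounding).

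Of 15 serine and glycine genes 11 were measured, with a median of 0.18 for genotype in hepatocytes. There 6 were higher and 2 lower at an adjusted p under 0.05, against 27.7% and 26.2% of all probes. Called were 1 of 11 as lower there, against 1.24% of all probes. With isolation in FF 1 was called higher and 1 lower, against 1.25% and 0.192%. Srr, serine racemase, fell from 13.35 ± 0.07 in FF to 11.85 ± 0.04 in Dhep hepatocytes (log2 means, SD, n = 3 arrays, limma adjusted p = 1.95e-15). The genotype difference on its other probes stood at -1.94 and 0.15. Cth, cystathionine gamma-lyase, fell by 1.23 with isolation in FF and stood at -0.25 in Dhep. Of 24 lipid droplet and 17-beta hydroxysteroid dehydrogenase genes 20 were measured. Among them 1 was called higher for genotype in hepatocytes and 1 for isolation in FF, against 1.22% and 1.25% of all probes. Plin2, a coat protein of lipid droplets, rose by 1.07 ± 0.07 with genotype in hepatocytes and stood at 0.06 in liver. Fitm2, which acts in lipid droplet formation, rose by 1.11 ± 0.06 with isolation in FF. Its other probes stood at 1.04 and 0.57, and under median scaling it stood at 0.72, without a call.

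Of 21 adherens and tight junction genes, the family around Cdh1, 17 were measured and their median was -0.09 for genotype in hepatocytes. There 4 were higher and 8 lower at an adjusted p under 0.05, against 27.7% and 26.2% of all probes. Called were 2 of 17 as lower there, against 1.24% of all probes, and 1 of 17 as higher with isolation in FF, against 1.25%. Gjb1, a connexin of hepatocyte gap junctions, fell by 1.35 ± 0.10 in Dhep hepatocytes and rose by 1.23 ± 0.10 with isolation in FF. Cldn3, a tight junction claudin, fell by 1.04 ± 0.06 in Dhep hepatocytes. None of these calls was kept under median scaling (-0.87 and 0.80 for Gjb1 and -0.70 for Cldn3).

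The genes whose signal followed each member most closely were sought among 769 probes with 1 symbol and a range of at least 1 log2 unit over the group means. They were added for description after the values were seen, since no member was called. With Glul these were Wdr89 (Pearson's r 0.96 over 12 arrays), Cygb (0.94), the cytoglobin of stellate cells, and H2ac18 (0.94). Cygb had means of 8.12 in FF hepatocytes and 7.12 in Dhep hepatocytes. With Oat they were Tubb2b (0.98), Lrtm1 (0.98) and Gsta1 (0.98). With Rhbg they were Cyp2d13 (0.97), Fkbp15 (0.96) and Krit1 (0.96).

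For Slc1a2 on its brightest probe the nearest genes were Ciart (0.99), Eif4ebp3 (0.98) and Lpin1 (0.98). Ciart, a repressor in the circadian clock, had means of 7.40 (FF) and 8.04 (Dhep) in liver, and of 8.85 (FF) and 7.91 (Dhep) in hepatocytes. For Cdh1 they were Slc38a2 (0.96), Angptl4 (0.94) and Fitm2 (0.94). The 12 points of each correlation come from 4 RNA samples and share the same arrays and scaling.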

How the data were processed

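RNA from liver or isolated hepatocytes was measured on 12 bead arrays, 3 in each of 4 groups taken from the sample titles. Per the submitters' processing notes BeadStudio was used, with its version and background setting not given in the sources used here. Linear intensity per probe, without normalization, makes up the deposited raw table. The second deposited table gives intensity as normalized by the authors, whose method is not stated in its header or the labels. The number of arrays, not a count, limits the precision with which each RNA sample was measured. For comparisons between groups the limit is the number of mice, since repeat arrays of an RNA sample do not cover the spread between mice.

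The raw table was corrected with normexp (offset 50, no negative controls and no detection p were used), log2 transformed, and then normalized by quantiles (limma 3.58.1, R 4.3.3). The filter kept 22859 probes (50.5%). Of 45281 probes 34885 had 1 annotated symbol, 18 several and 10378 none. A model of 4 group means was fitted with lmFit and eBayes (8 residual and 14.8 prior degrees of freedom), with Benjamini-Hochberg adjustment over all kept probes. A second fit used the 4 RNA means (2.33 prior degrees of freedom). Scripts were tested on simulated data. SD is between 3 arrays. Genes outside the members are named by rule: up to 4 called per list and comparison, or the 4 largest where none was, and fixed classical zonation genes. Each gene stands for its kept probe of highest mean signal. Sequences are RefSeq's on GRCm38.p6. Figures used matplotlib 3.10.9.

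The members and lists were chosen with earlier results of these data known. Replicate numbers did not pair arrays: same-numbered arrays of different groups had deviation correlations of -0.05 to 0.07, none of 18 above 0.1. Alternatives were other background corrections, scalings and filters, the authors' table, a replicate block, no fold threshold, another probe summary and leaving out each array.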

Additional observations from a re-analysis of the deposited data

Results flagged for a closer look

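Genotype differences that were not the same in hepatocytes as in liver, by the interaction term of the fit to 12 arrays (limma adjusted p under 0.05), were found for 4 of the 5 measured members. The interaction was -0.79 for Glul, -0.34 for Rhbg and 0.27 for Oat, and -0.75 (ILMN_3076439), -0.56 (ILMN_2642339) and -0.40 (ILMN_3123195) for Slc1a2. It is coded as the genotype difference in hepatocytes minus that in liver. All 4 were under the fold threshold, and those of Rhbg and of the last 2 Slc1a2 probes turned sign under median scaling. Under that scaling Glul stood at -0.15 with an adjusted p of 0.309, and Oat (0.47) and Slc1a2 ILMN_3076439 (-0.26) kept an adjusted p under 0.05.

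Among the zonation and pathway lists the interaction passed both thresholds in 10 genes. These were 1 of 23 other pericentral, 4 of 25 other periportal and 1 of 20 lipid droplet genes. They also were 1 of 11 serine and glycine genes, 1 of 17 junction genes and, of 27 glutamine and ammonia genes, 1 positive and 1 negative. Over all probes 0.748% passed both as positive and 1.78% as negative. Among other-cell markers the interaction passed both as negative in 7 of 14 endothelial, 7 of 12 stellate and 1 of 3 red cell genes. It passed both as positive in 2 of 10 Kupffer cell and macrophage genes. In the lists the interaction was negative for Srr (-1.83, other probes -2.35 and 0.27) and Cyp7a1 (-1.52). It was also negative for Asns (-1.27, other probes -0.22 and -0.14) and Cldn3 (-1.14). It was positive for Hal (1.46, other probe 1.38), Sult5a1 (1.35, other probe 1.26) and Etnppl (1.17, other probe 1.21). Positive values were also found for Slc25a15 (1.08, other probe 0.77), Aldh1b1 (1.08) and Plin2 (1.01). Of these, Asns (-0.75) and Cldn3 (-0.61) lost the call under median scaling, and Aldh1b1 (0.99) and Plin2 (0.92) lost it with cyclic loess. Aldh1b1 also lost it without FF hepatocyte array 1 (0.98), and Plin2 when each of 5 arrays was left out in turn (0.95 to 1.00). Each interaction rests on 4 RNA samples of 1 mouse each, and no cause was tested.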

How the results depend on the processing

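Each array group stands for 1 mouse, dim probes lie near the floor, and 3 periportal members were not analysed here, which limits the comparison of the zones. Over 760 alternative values of member differences 722 kept their side of the adjusted p threshold, 20 lost it and 8 gained it with their sign unchanged, and 10 changed sign with an adjusted p under 0.05 in at least 1 of the fits compared, the latter all under median scaling. Of the 722, 23 changed sign with an adjusted p of at least 0.05 in both fits, 3 under median scaling, 2 under cyclic loess or the authors' table and 18 with an array left out, and these differences were at most 0.058 in size as reported. Over 1596 values of named list genes 1565 stayed, 27 lost a call, 4 gained one and 0 reversed. The reversals were Glul isolation in FF (-0.29), Rhbg genotype in hepatocytes (0.16) and interaction (0.22), and Slc1a2 genotype in hepatocytes (0.32 and 0.14) and interaction (0.080 and 0.093) on ILMN_2642339 and ILMN_3123195. For Cdh1 they were genotype in hepatocytes (0.30), isolation in FF (-0.084) and interaction (0.60). Under median scaling the median of all probes was 0.16 for genotype in hepatocytes (0.00 as reported) and -0.15 for isolation in FF (-0.03 as reported). The cause of these shifts was not tested.

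Counts of called probes (115 higher and 21 lower for genotype in liver, 278 and 283 in hepatocytes, 286 and 44 for isolation in FF, 113 and 108 in Dhep, 171 and 408 for the interaction) also moved. With an offset of 16 they were 182 higher in liver, 497 and 553 in hepatocytes, 514 and 89 in FF, 202 lower in Dhep, and 362 and 754. With median scaling they were 830 and 76 in hepatocytes, 119 and 458 in FF, and 1686 and 119. The authors' table gave 24 lower in FF and 113 positive interactions. Without a fold threshold the counts were 2990 and 3361, 6322 and 5990, 4778 and 6141, 4883 and 4682, and 5467 and 4857. The RNA means gave 0 where the 12 arrays gave 172 for genotype and 93 for isolation.

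Set medians, in the order genotype in liver, in hepatocytes, isolation in FF, in Dhep and interaction, were -0.096, -0.050, -0.12, -0.084 and 0.038 for the pericentral members under median scaling. They were -0.14, 0.18, -0.27, 0.060 and 0.31 for the other pericentral genes and -0.32, 0.48, -0.61, 0.24 and 0.82 for the other periportal genes. Taking the median over a gene's kept probes gave -0.23 for the pericentral members in hepatocytes, -0.13 for the other pericentral interaction and -0.021 for the other periportal genes in liver. Cyclic loess gave 0.020 (FF isolation) and -0.095 (interaction) for the other pericentral genes, and -0.090 (liver) and 0.31 (interaction) for the other periportal genes. The authors' table gave -0.034 and 0.35 for these lists in hepatocytes. Leaving out 1 array gave -0.11 to -0.026 for the other pericentral genes in hepatocytes, lowest in size without Dhep hepatocyte array 1, and 0.091 to 0.15 for the other periportal genes with isolation in Dhep.

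With the replicate number as a block the counts of calls were 115 and 21 in liver, 278 and 283 in hepatocytes, 286 and 44 in FF, 113 and 108 in Dhep, and 171 and 408, the same as without it. Of the member differences the block moved Slc1a2 ILMN_2642339 in hepatocytes from an adjusted p of 0.0436 to 0.0507.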
